A study of Mus musculus with 6 samples.

Results

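Interferon-stimulated and antigen presentation genes were followed as a group in immortalized mouse fibroblasts. The group was given as 54 gene symbols and holds nucleic acid sensors, interferon receptors, STAT and IRF transcription factors, antiviral effectors, interferon-inducible GTPases and genes that load peptides onto MHC class I. Of these, 53 were found by symbol among the 19078 genes listed. The exception was *Mb21d1*, the sensor of cytosolic DNA now named *Cgas*. RefSeq also gives it the older name *E330016A19Rik*, and under that name a mean of 2795 normalized counts was listed. It was kept out of the counts of members below.

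The RNA-seq data came from poly(A) RNA, with 3 libraries of *Ms4a15* OE cells and 3 of control cells. All cells were immortalized mouse embryonic fibroblasts (MF) of a conditional *Gpx4* −/− line that expresses Cre-ERt2, a recombinase switched on by tamoxifen, and carries a CRISPR activation system. In *Ms4a15* OE cells a guide delivered by lentivirus raised *Ms4a15* from its own locus, and control cells received the empty lentivirus, although the sample labels give their genotype as wild type. Both were G418-selected pools rather than clones, and nothing in the sources used here says that the libraries came from separate cultures.

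The value used for each gene was the authors' mean normalized count over the 6 libraries, that is, the count after division by a size factor that corrects for sequencing depth. This mean joins *Ms4a15* OE and control cells, so a gene present in 1 group alone cannot be told apart from a gene present in both, and no difference between the groups is given. For the same reason the mean of 638 for *Ms4a15* itself does not check the labels. No replicate error could be computed for these means. For genes with means up to 8, the digits of the mean were enough to recover the whole number of reads in each library, without saying which library belonged to which group. The size factors of the 6 libraries ran from 0.887 to 1.14, a ratio of 1.28, so depth was similar throughout.

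Cells detect foreign nucleic acid with cytosolic and endosomal sensors, which induce type I interferon. Interferon binds its receptors, and Janus kinases then activate STAT proteins, which join IRF9 and bind the interferon-stimulated response element (ISRE) in the promoters of target genes. Interferon gamma acts mainly through the gamma-activated sequence (GAS). The targets include proteins that bind viral RNA or tether virus particles, GTPases that act on vacuoles of intracellular parasites, and the machinery that brings peptides to MHC class I. Fibroblasts keep many of these genes at a low basal level and raise them on exposure to interferon.

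Promoter stretches that hold these elements in 9 members are shown first, because they link genes of different roles by sequence. They were chosen after the matches were seen and come from RefSeq promoters on GRCm38.p6 (the mm10 assembly). Each is written 5′ to 3′ on the strand of its gene, with 1 motif marked in capitals. In the first 8 the capitals mark the ISRE core GAAANNGAAA or its reverse complement, where N is any base, and in the last the GAS core.

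*Isg15*, ubiquitin-like modifier, chr4:156200863-156200908, minus strand: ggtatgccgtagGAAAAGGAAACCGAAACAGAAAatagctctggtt
*Ifit1*, binds viral RNA ends, chr19:34640773-34640825, plus strand: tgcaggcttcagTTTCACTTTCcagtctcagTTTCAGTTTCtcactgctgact
*Ifit3*, partner of IFIT1 proteins, chr19:34583361-34583428, plus strand: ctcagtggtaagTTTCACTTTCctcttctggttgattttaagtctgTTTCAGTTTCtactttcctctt
*Oas1a*, oligoadenylate synthetase, chr5:120907526-120907557, minus strand: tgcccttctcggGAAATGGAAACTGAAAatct
*Gbp2*, guanylate-binding protein, chr3:142620592-142620625, plus strand: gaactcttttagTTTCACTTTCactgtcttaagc
*Irgm1*, immunity-related GTPase, chr11:48871428-48871457, minus strand: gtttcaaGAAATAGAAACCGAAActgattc
*Igtp*, immunity-related GTPase, chr11:58199510-58199543, plus strand: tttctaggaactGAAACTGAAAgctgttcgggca
*B2m*, class I light chain, chr2:122147536-122147569, plus strand: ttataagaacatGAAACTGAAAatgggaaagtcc
*Irf1*, transcription factor, with the GAS core TTCNNNGAA, chr11:53769912-53769944, plus strand: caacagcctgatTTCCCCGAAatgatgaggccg

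All of these stretches lie before the RefSeq transcription start of their gene. In GENCODE M21, 24 of the 34 bases shown for *Gbp2* and all 30 shown for *Irgm1* also fall in the exon of a transcript that starts further upstream. The stretch from *Isg15* holds 3 overlapping matches, since GAAA recurs there every 6 bases. The stretches from *Oas1a* and *Irgm1* hold 2 overlapping matches each, whereas the 2 matches of *Ifit1* and of *Ifit3* stand apart. The stretch from *Igtp* also holds a GAS core, at positions -45 to -37 before the start, which is left in lower case.

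Most members were present in these cells without any interferon named in the sources used here. Of the 53 members, 49 reached a mean of 10 normalized counts, against 67.7% of all genes listed, and 42 reached a mean of 1000, against 35.04%. The median member stood at 3249 normalized counts, above 84.0% of all genes on that scale, and the means ran from 0.176 to 45520.1. Long genes collect more reads, so levels of different genes were also set side by side per kilobase of coding length. There the median member stood at 2059 normalized counts per kilobase, above 77.7% of the 14020 genes with a coding length, whose median was 406. The higher side of that median held 44 of 53 members. Together the members took 0.631% of the summed means.

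**Figure D1:**
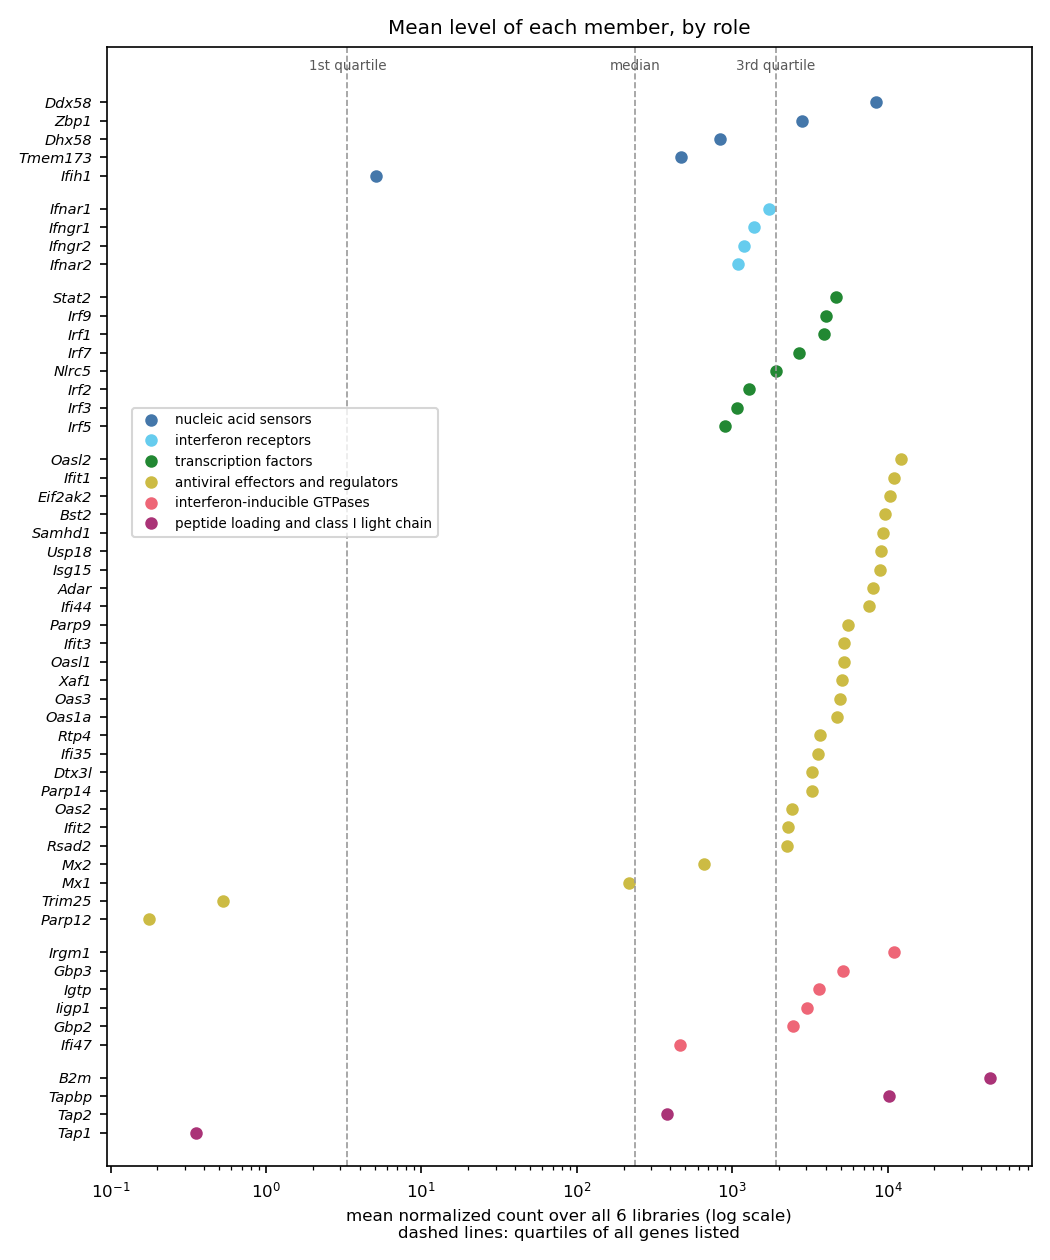
Mean normalized count of each of the 53 listed members over all 6 libraries (log axis), grouped and coloured by role, with 1 point per gene. Dashed lines are the quartiles of all 19078 genes listed (3.34, 237 and 1909), and *Ifih1*, *Trim25*, *Tap1* and *Parp12* sit far to the left of the other 49 members.

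**Figure D2:**
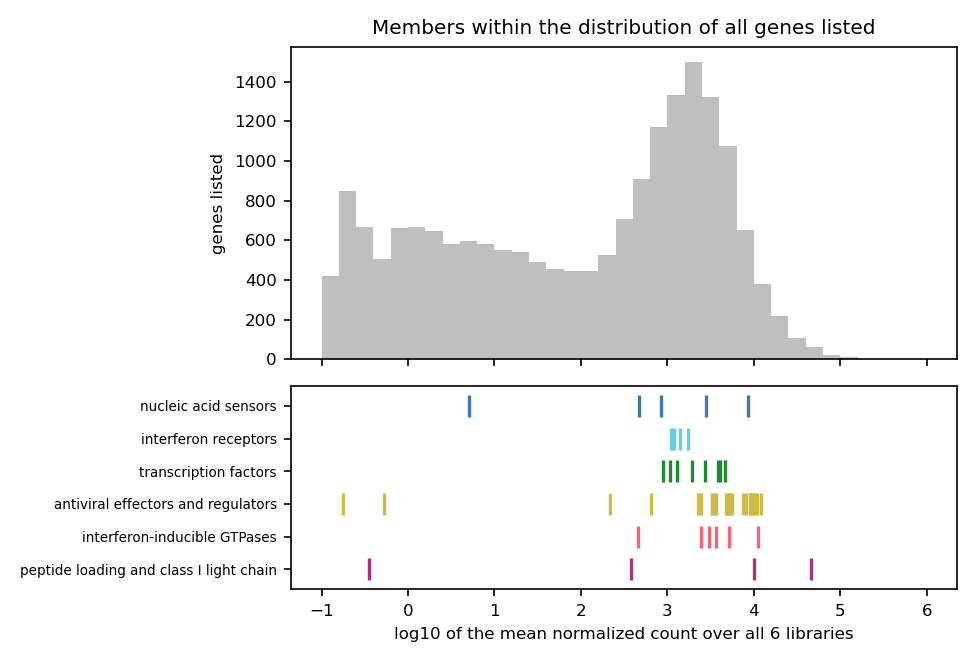
Upper panel, number of genes by log10 of the mean normalized count in bins of the 19078 genes listed; lower panel, the 53 members on the same axis, 1 tick per gene and 1 row per role. Most ticks lie under the right-hand peak of the distribution, and the 4 interferon receptors lie close together.

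The cells carried markers of fibroblasts and few of other cell types. All 8 fibroblast markers were listed, with means from 278 for *Pdgfra* to 135155 for *Col1a2*. Per kilobase of coding length 7 of them were above the median gene, whereas *Pdgfra*, at 84.9, was below it. Of 10 leukocyte markers, 3 (*Cd3e*, *Adgre1* and *Siglech*) were not listed. The remaining 7 ran from 0.855 to 164 with a median of 6.501, and *Ptprc*, the pan-leukocyte marker, stood at 11.1. The 4 epithelial markers ran from 0.176 to 10.9 and the 4 endothelial markers from 1.36 to 107. Whether markers moved with any member was not tested.

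The nucleic acid sensors spanned a wide range. *Ddx58*, which encodes the RNA sensor RIG-I, stood at 8463 normalized counts and, per kilobase of coding sequence, at 3046. *Zbp1*, a sensor of Z-form nucleic acid, was listed at 2828. *Dhx58*, the RIG-I relative LGP2 that lacks the signalling domains, stood at 833, and *Tmem173*, which encodes the adaptor STING, at 468. *Dhx58* and *Tmem173* were close to each other and to the median gene per kilobase of coding length, at 409 and 412. Per kilobase of exons they stood further apart, at 254 and 171. *Ifih1*, which encodes the sensor of long RNA duplexes MDA5, was listed at only 5.08 normalized counts, or 1.65 per kilobase, below *Ddx58* on either scale.

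The 4 receptor chains were the most uniform role. *Ifnar1* and *Ifnar2*, the chains of the type I interferon receptor, stood at 1734 and 1091 normalized counts. *Ifngr1* and *Ifngr2*, the chains of the interferon gamma receptor, stood at 1384 and 1193. Per kilobase of coding length the receptor chains ran from 709 for *Ifnar2* to 1198 for *Ifngr2*, and per kilobase of exons from 292 for *Ifnar1* to 486 for *Ifngr1*. With no error on these means, their order is only that of the listed values.

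All 8 transcription factors were present. *Stat2* and *Irf9*, which are subunits of the ISRE-binding complex, were listed at 4626 and 4014 normalized counts. *Irf1*, an early interferon gamma target, stood at 3899 and *Irf2*, known as its antagonist, at 1281. Per kilobase, *Irf1* had the highest level of the role at 3951 and *Irf2* stood at 1224. *Irf7*, which amplifies type I interferon production, was listed at 2706, *Irf3*, which starts it, at 1068 and *Irf5*, best known from myeloid cells, at 894 normalized counts. *Nlrc5*, the transactivator of MHC class I genes, was listed at 1906. Its coding sequence is long, and per kilobase of coding length it had the lowest level of the 8, at 332. With exon length as the divisor, *Irf2* stood lower, at 173 against 224 for *Nlrc5*.

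Antiviral effectors and their regulators formed the largest role, with 24 of 26 genes at a mean of at least 10 and a median of 5014 normalized counts. Per kilobase of coding length, the highest levels of the role were those of *Bst2*, which tethers budding virions to the cell surface, at 18657 and of *Isg15* at 18505. Their means were 9627 and 8938 normalized counts. With exon length as the divisor *Isg15* stood above *Bst2*, at 11822.5 against 10661. *Usp18*, the protease that removes ISG15 from proteins, was listed at 9085. Of the oligoadenylate synthetase family, whose active members switch on RNase L, the 5 genes among the members were listed at 12162 for *Oasl2*, 5217 for *Oasl1*, 4949.9 for *Oas3*, 4727 for *Oas1a* and 2418 for *Oas2*. Among the IFIT genes, *Ifit1* stood at 10966, *Ifit3* at 5266 and *Ifit2* at 2300.1 normalized counts. Per kilobase the order was the same, at 7895, 4356 and 1631.

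*Eif2ak2*, which encodes the translation-blocking kinase PKR, was listed at 10420.0 normalized counts. *Samhd1*, which depletes deoxynucleotides, stood at 9403 and *Adar*, which edits adenosine to inosine, at 8046. *Rsad2*, which encodes the radical SAM enzyme viperin, stood at 2236. Per kilobase these 4 genes ran from 2059 for *Rsad2* to 6744 for *Eif2ak2*. The ADP-ribosyltransferase genes differed widely. *Parp9* and its partner *Dtx3l*, a ubiquitin ligase, were listed at 5579 and 3249 and *Parp14* at 3240.3, whereas *Parp12* was listed at 0.176. Of the remaining effectors, *Ifi44* stood at 7539, *Xaf1* at 5078, *Rtp4* at 3692 and *Ifi35* at 3559 normalized counts.

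The dynamin-like *Mx1* and *Mx2*, of a family that restricts virus replication, were the lowest effectors apart from *Trim25* and *Parp12*. Their means were 217 and 655 normalized counts, and per kilobase of coding length they stood at 116 and 332, below the median gene. *Trim25*, which encodes a ubiquitin ligase of the RIG-I pathway, was listed at 0.529.

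Interferon-inducible GTPases were all at or above 460.3 normalized counts. *Irgm1*, which regulates the other immunity-related GTPases, was listed at 11065, *Igtp* at 3626, *Iigp1* at 3013 and *Ifi47* at 460.3. Of the guanylate-binding proteins, *Gbp3* stood at 5125 and *Gbp2* at 2457. Per kilobase of coding length, *Irgm1* was highest of the 6 at 9018 and *Ifi47* lowest at 365, and 5 of the 6 GTPases were above the median gene. The lead of *Irgm1* was small with exon length as the divisor, at 1904 against 1793 for *Igtp* and 1570 for *Gbp3*.

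Genes of MHC class I peptide loading held both the highest member and 1 of the lowest. *B2m*, which encodes the light chain shared by all class I molecules, was listed at 45520.1 normalized counts. It reached 127507 per kilobase of its short coding sequence, above 99.9% of genes with a coding length. *Tapbp*, which encodes tapasin, the bridge between class I molecules and the peptide transporter, stood at 10176. The transporter is a heterodimer of the products of *Tap1* and *Tap2*. *Tap2* was listed at 380.2, or 181 per kilobase, and *Tap1* at 0.355, or 0.164 per kilobase.

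Other genes of the pathways showed a similar split between abundant and nearly unlisted members. Of 25 further interferon pathway genes 23 were listed, with a median of 1486 normalized counts and 19 at a mean of at least 10. The kinase gene *Jak1* stood at 8853, *Ifitm3*, which blocks viral entry, at 29355 and the chemokine gene *Cxcl10* at 3540.1. The interferon genes on this list were low, with *Ifnb1* at 25.03, *Ifna4* at 7.38 and *Ifng* not listed. Other interferon genes were not looked at. Of 17 further antigen presentation genes 16 were listed, and 5 of them had a mean under 1, against 16.2% of all genes listed. The class I heavy chain gene *H2-D1* stood at 17445, but *H2-K1*, the other classical heavy chain gene, at 0.328. Of the immunoproteasome subunits, *Psmb10* stood at 2114 and *Psmb8* and *Psmb9* at 0.651 and 0.163. The endoplasmic reticulum chaperone genes *Pdia3*, *Calr* and *Canx* were at 55896, 54378 and 47485. The class II genes *H2-Aa* and *H2-Eb1* were low, at 0.147 and 0.352, *H2-Ab1* was not listed, and their transactivator *Ciita* stood at 1.05. *Cd74*, which also serves class II presentation, was higher, at 52.2. Class II accessory genes outside these lists, from the chromosome 17 region described below, differed widely. *H2-DMb2* stood at 0.364, *H2-Oa* at 0.843, *H2-DMa* at 23.5 and *H2-DMb1* at 448.

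The 4 lowest members were resolved to whole reads. *Ifih1* had between 1 and 10 reads per library, with a median of 5, and reads in all 6 libraries. Its total of 30 reads has an exact 95% Poisson interval of 20.2 to 42.8, which covers counting error only. *Trim25* had 3 reads in all, spread as 1 read in each of 3 libraries. *Tap1* had 2 reads in all, both in 1 library, and *Parp12* had a single read in 1 library. The exact 95% intervals of these totals were 0.619 to 8.77 for *Trim25*, 0.242 to 7.22 for *Tap1* and 0.0253 to 5.57 for *Parp12*. A library with 0 reads still allows up to 3 counts, so no difference between libraries was detectable for *Trim25*, *Tap1* or *Parp12* at this depth. *Ifna4*, set beside them, had 44 reads in all, between 4 and 11 per library, and *Cmpk2*, a nucleotide kinase gene next to *Rsad2*, had 9 reads, between 0 and 5 per library.

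**Figure D3:**
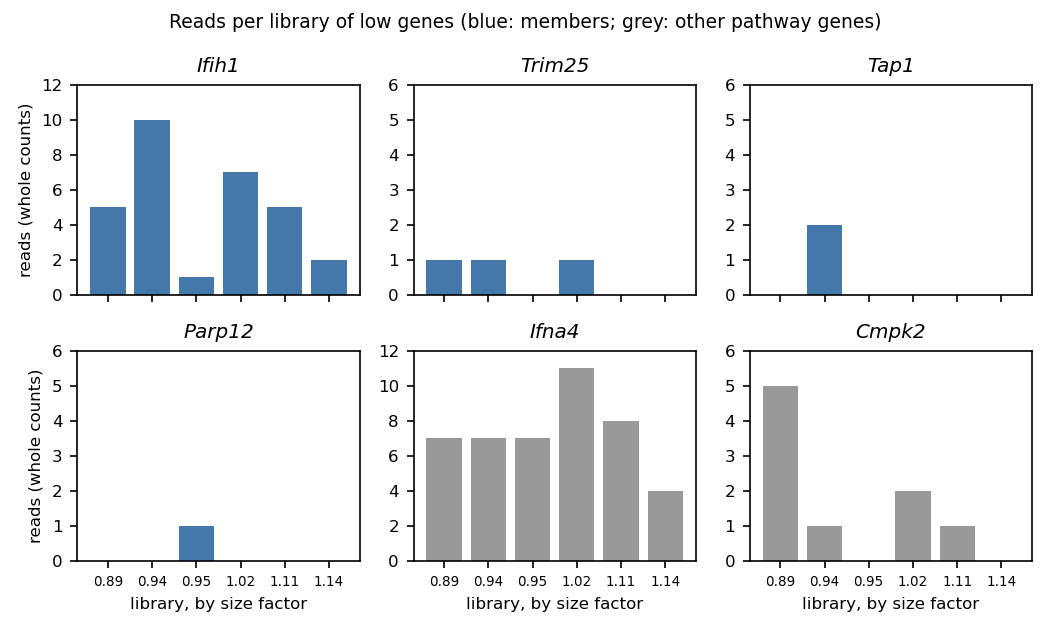
Whole reads per library for the 4 lowest members (blue) and for *Ifna4* and *Cmpk2* (grey), with libraries ordered by size factor and not matched to a group. *Ifih1* has reads in all 6 libraries, from 1 to 10, while *Trim25*, *Tap1* and *Parp12* have at most 2 reads in any library.

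The positions of the lowest members were then compared with levels of neighbouring genes, which were chosen after their values were seen. *Tap1* lies at chr17:34187553-34197225 between *Psmb9* and *Psmb8*. These 3 adjacent genes span 19.5 kb, and *Psmb9*, *Tap1* and *Psmb8* were listed at 0.163, 0.355 and 0.651 normalized counts. The listed genes on either side were higher, with *H2-DMb1* at 448 and *Tap2* at 380.2. Per kilobase of coding length the 3 genes stood at 0.248, 0.164 and 0.786, and *H2-DMb1* and *Tap2* at 572 and 181. The wider stretch from *Tapbp* to *H2-Eb1* spans 401 kb of chromosome 17 and holds 24 listed protein-coding genes. Of these, 13 had a mean of at least 100, against 54.7% of all genes listed, and 8 a mean under 1, against 16.2%. Per kilobase of coding length, those genes ran from 0.164 for *Tap1* to 100439 for *Rps18*, a ribosomal protein gene.

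**Figure D4:**
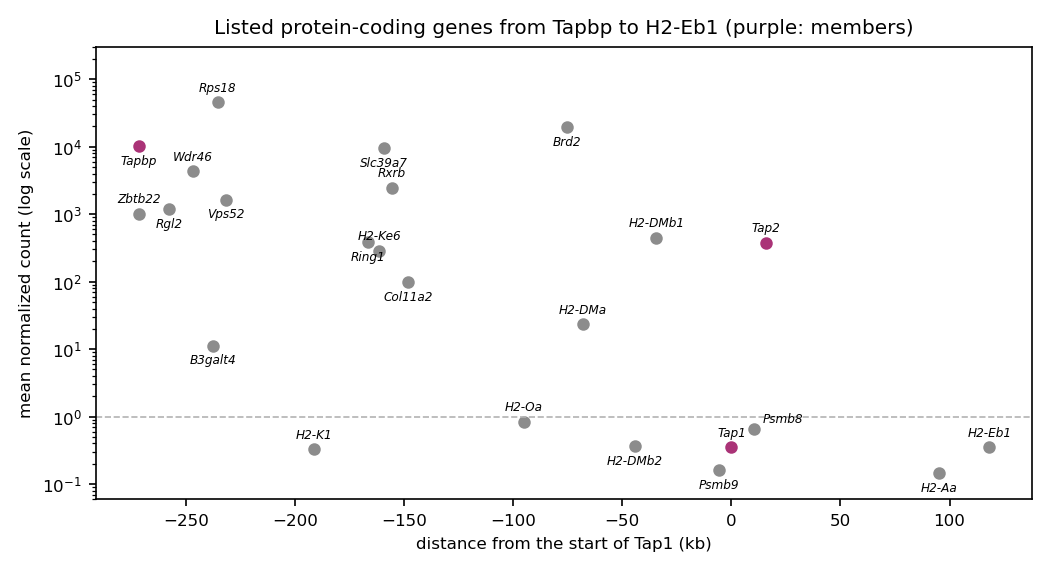
Mean normalized count (log axis) of the 24 listed protein-coding genes from *Tapbp* to *H2-Eb1* by distance of their start from the start of *Tap1* in kb, with the 3 members in purple and a dashed line at 1. *Psmb9*, *Tap1* and *Psmb8* lie together below the line, between *H2-DMb1* at 448 and *Tap2* at 380.2.

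*Trim25*, at chr11:88999376-89020293, lies between *Coil* at 1133 and *Dgke* at 1015 normalized counts. Per kilobase *Trim25* stood at 0.278 and these neighbours at 659 and 599.7, so its low level was not shared by the next listed genes. For *Parp12*, at chr6:39086410-39118349, the nearest protein-coding genes listed by symbol were *Tbxas1* at 0.339 and *Slc37a3* at 1520.1. Per kilobase these 3 genes in the order named stood at 0.0826, 0.212 and 1026. For *Ifih1*, at chr2:62595798-62646255, the nearest such genes were *Dpp4* at 0.188 and *Gca* at 8.48. Per kilobase *Ifih1* stood at 1.65 and these neighbours at 0.0825 and 12.9, so both were low as well. *Trim25*, *Parp12* and *Ifih1* share no exonic base with another gene in GENCODE M21, and *Tap1* shares 3.87% of its exonic bases with *Psmb9*. The authors counted reads on UCSC knownGene models, which were not used here. A level near 0 therefore says only that few reads were assigned to the gene, and whether gene models or read assignment set the low levels of *Tap1*, *Trim25*, *Parp12*, *H2-K1*, *Psmb8* and *Psmb9* was not tested.

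Some levels of other members may include, or lack, reads shared with an overlapping gene. Neither the strand setting of the counting nor the handling of such reads is given. Exons of 23 of the 53 members overlap another GENCODE gene, and for 6 of them (*Tapbp*, *Tap2*, *Adar*, *Ifi35*, *Irf5* and *Rtp4*) the overlap exceeds 10% of exonic bases. *Irf5* overlaps *Tnpo3*, listed at 12949.7, over 14.1% of its exonic bases on the opposite strand. Genes of the OAS, IFIT, GBP, MX and immunity-related GTPase families and the class I heavy chains have close copies in the genome. How reads shared between such copies were counted is not given, so the levels of single family members are uncertain.

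Promoters of the members were searched for the same elements as in the stretches above. The window held the 250 bases before and 50 after the RefSeq start, both strands were searched, and 40 members matched a promoter. The ISRE core was found in 17 of 40 members (42.5%), against 3.70% of the 11206 listed genes with a promoter. With the further letters CT after the core it was found in 8 members (20.0%), against 0.375%. The GAS core was found in 12 members (30.0%), against 8.73%. Both cores were found in 5 members and neither in 16. The members were partly chosen as known interferon targets, so these shares describe the list and were not tested.

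The ISRE core was unevenly spread over the roles. It was found in 4 of 5 GTPases with a promoter, in 8 of 19 effectors, in 2 of 7 transcription factors, in both sensors with a promoter (*Ddx58* and *Ifih1*), in *B2m* alone of 3 peptide loading genes and in 0 of 4 receptor chains. The GAS core was found in 2 of the receptor chains, *Ifnar1* and *Ifnar2*, and in 7 effectors. The 25 ISRE matches began between positions -241 and 33, where 1 is the start and negative positions lie before it. In *Ddx58*, *Eif2ak2* and *Ifih1* every match lay after the start, and 7 members held at least 2 matches. In *Bst2* a GAS match overlaps an ISRE match, whereas in *Igtp* a GAS match ends shortly before the ISRE match.

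**Figure D5:**
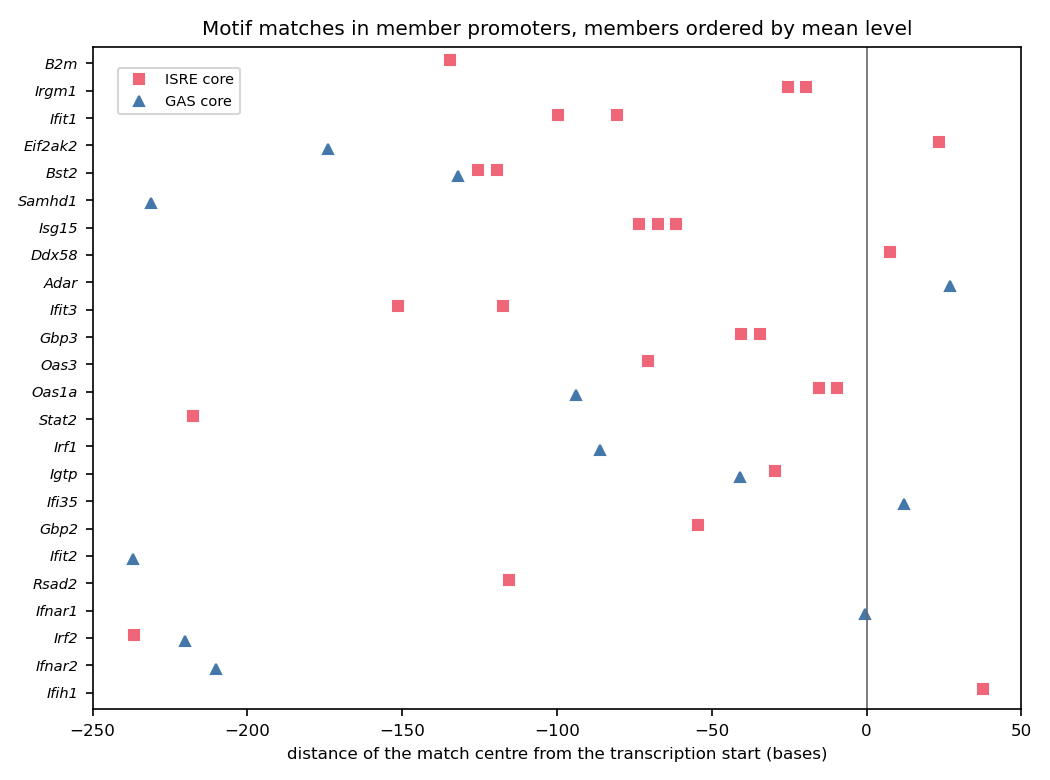
Distance of the centre of each ISRE core (red squares) and GAS core (blue triangles) from the RefSeq transcription start, in bases, for the 24 members with either, ordered from the highest mean level at the top. Matches lie on both sides of the start, and *Isg15* has 3 ISRE matches next to each other.

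Members with and without an ISRE core overlapped widely in level. Per kilobase of coding length, the 17 members with the core ran from 1.65 to 127507 with a median of 3046, and the 23 members without it from 0.0826 to 7980 with a median of 1631. *Oasl2*, at 7980, had the highest level of those without a match, and *Ifih1*, at 1.65, the lowest of those with a match. No match says only that these letters are not in this window.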

How the data were processed

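Poly(A) RNA of 3 *Ms4a15* OE and 3 control libraries was sequenced on an Illumina HiSeq4000. Per the study's methods, the authors aligned reads with STAR to mm10 with the UCSC knownGene annotation, assigned them to genes with HTSeq-count and tested for differential expression with DESeq2. The submitters' processing notes also name TopHat, Cufflinks and Cuffdiff, with no role or version. The methods and the labels differ on read length and on whether the kit kept strand, and the strand setting of the counting is not given in the sources used here.

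The signal used here is the deposited mean, over all 6 libraries, of counts that the authors divided by size factors. The other columns of the authors' table hold their own comparison (log2 fold changes, standard errors, p-values and a direction) and were not used. The planned edgeR test was not run, because no column holds the counts of a named sample.

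Whole reads were recovered for the 5879 genes with a mean of at most 8, a limit set after a trial on these data. Each mean, given to 10 significant digits, was written as a sum of 6 whole counts, each divided by the size factor of its library and by 6. Size factors were read from the genes whose only read lay in 1 library. Within 1.2 rounding units every mean had exactly 1 solution. The method was tested on simulated data, where all 5240 genes were solved correctly. The recovered libraries carry no group, so no SD or test was computed.

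Coordinates and lengths came from GENCODE M21 (GRCm38, the assembly of mm10), by symbol for 14651 genes, and promoters from RefSeq (GRCm38.p6, 300 bases). In 36 of 40 members the bases after the RefSeq start were found in a GENCODE transcript, which checked the strand. Symbols turned into dates (25) were left as they stood. Python 3.11.15, numpy 2.4.6, pandas 2.3.3, scipy 1.17.1 and matplotlib 3.10.9 were used. The genes named were all members, the genes of fixed pathway and marker lists, and *Ms4a15*, and some genes of these lists are not reported here. The members and lists were chosen with earlier results of these data known. The neighbouring genes, the printed sequences and 2 of the alternatives were chosen after values were seen.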

Additional observations from a re-analysis of the deposited data

How the results depend on the processing

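The number of members that reached a mean of 10 normalized counts was 49, and also 49 at a minimum of 100 (54.7% of all genes) and 50 at a minimum of 1 (83.8% of all genes). The percentile of the median member, 84.0 among all genes, fell to 78.6 when only genes that reached a mean of 10 were ranked, to 77.7 per kilobase of coding length and to 81.4 per kilobase of exons. Without the 4 lowest members the median was 3626 normalized counts in place of 3249. These last 2 settings were chosen after seeing the data. The ISRE core followed by CT was found in 8 members in place of 17, by construction a narrower motif, and in 15 (2.19% of listed genes) when the window ran from 150 bases before to 50 after the start. Whole reads of the 4 lowest members had 1 solution at a tolerance 10 times wider as well, as did 5868 of 5879 genes.

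No paired analysis was possible because the recovered libraries and the deposited means carry no replicate number and no test between groups was made. The edgeR test, DESeq2 with its size factors, the fit with no filter, the replicate block and leaving out each replicate were not run for the same reason. The means have no error, and levels of members above the limit for whole reads are known only as a mean over both groups.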

Other observations

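The reads of the lowest members in single libraries, which are not matched to a group, were as follows. With libraries taken in order of rising size factor (0.887, 0.938, 0.946, 1.02, 1.11 and 1.14), *Ifih1* had 5, 10, 1, 7, 5 and 2 reads. In the same order *Trim25* had 1, 1, 0, 1, 0 and 0 reads. The 2 reads of *Tap1* were in the library of size factor 0.938, and the read of *Parp12* in the library of 0.946. *Cmpk2*, a nucleotide kinase gene beside *Rsad2*, had 5, 1, 0, 2, 1 and 0 reads, and *Ifna4*, an interferon alpha gene, had 7, 7, 7, 11, 8 and 4.

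Among antigen presentation genes outside the members, *Psmb8* had 4 reads in all, 1 in each of 4 libraries, and *Psmb9* had 1 read. The class I heavy chain gene *H2-K1* had 2 reads in all, 1 in each of 2 libraries, which has an exact 95% Poisson interval of 0.242 to 7.22 for counting error only. *Ciita*, the class II transactivator gene, had 6 reads over 4 libraries. *Irf4*, a transcription factor gene of lymphoid cells, had 2 reads.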
